A study of Mus musculus with 82 samples.

Results

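Skin of mice given a whole-body X-ray dose of 3 Gy was compared with skin of sham mice at day 7 (d7) after exposure. The comparison took every array labelled 3 Gy and d7, which gave 3 arrays, and every array labelled 0 Gy and d7, which gave 4 arrays, so it used 7 of the 82 arrays of the series. Each of these 7 arrays held the RNA of 1 skin biopsy of 1 mouse. The series followed 24 mice over doses of 0, 1, 3, 6 and 20 Gy from 2 h to 28 days, in 23 groups of dose and time point, by repeated biopsy of the same animals. All mice were male C57BL/6j, bought at 8 weeks of age and irradiated a week later under ketamine and xylazine. The 3 Gy mice received their dose once. The sham mice were carried and handled in the same way without radiation. Because mice were biopsied repeatedly, skin at d7 could come from animals with earlier biopsy wounds in both groups. Wet biopsies hold blood as well as skin, so blood transcripts are part of what was measured. Each biopsy was labelled with the red dye Cy5 and hybridised beside a universal mouse reference RNA labelled with the green dye Cy3, and every value below is a log2 ratio of biopsy over reference unless said otherwise.

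Ionizing radiation breaks DNA, and dividing cells answer with the p53 pathway, which stops the cell cycle and starts repair or cell death. Skin renews itself from basal keratinocytes, which stop dividing, move up and build the cornified barrier out of structural proteins, proteases of the kallikrein family and lipids made in the epidermis and sebaceous glands. At sublethal whole-body doses the blood-forming tissue is the most sensitive part of the animal.

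The arrays are named sham 1 to 4 and 3 Gy 1 to 3. The 4 sham arrays were read on 2 scanners, while all 3 Gy arrays were read on scanner 1. Sham 1 and sham 2 came from scanner 2 and sham 3 and sham 4 from scanner 1, and the scanner software version differed in step with the scanner. Sham 3 shared a slide with 3 Gy 1 and 3 Gy 2. The standard deviation (SD) of the loess-normalized log2 ratio over all tested probes was 0.471 on sham 1, 0.643 on sham 2, 0.944 on sham 3 and 0.811 on sham 4, and 0.888, 0.988 and 1.02 on the 3 Gy arrays. The spread was smallest on both scanner 2 sham arrays. In the normalized table that the authors deposited, the same SD lay between 0.947 and 1.096 on all 7 arrays. Loess ratios of sham 1 correlated with those of the 3 Gy arrays across probes at r of 0.618 to 0.668, those of sham 2 at 0.719 to 0.761, those of sham 3 at 0.933 to 0.94 and those of sham 4 at 0.797 to 0.85. The part of the narrower sham ratios in each difference was not tested. Values from the scanner 1 arrays alone or from the deposited table therefore stand beside many, but not all, of those from the loess fit. As a check of the tissue, the keratinocyte genes Krt5, Krt14 and Krt1 were above the reference on all 7 arrays, with log2 ratios from 2.69 to 7.47.

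**Figure D1:**
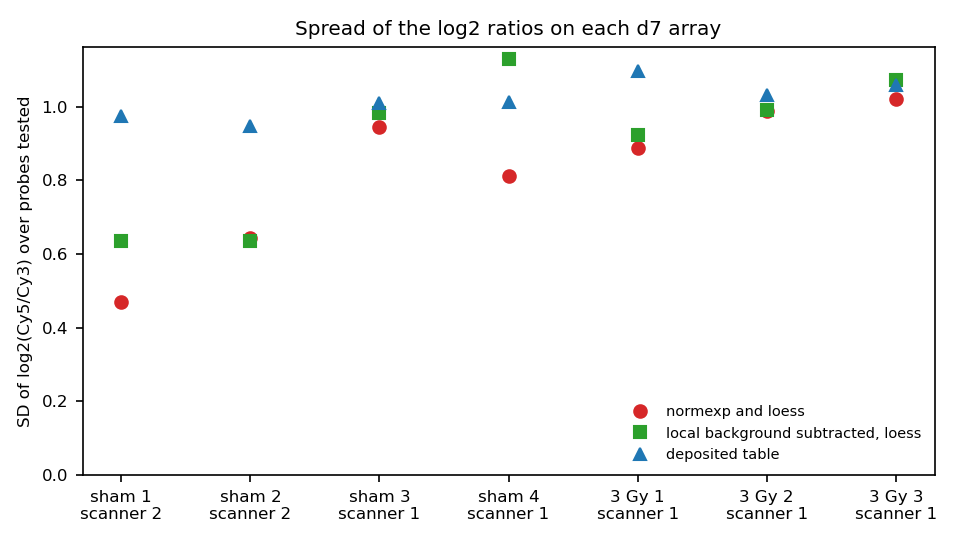
The SD of the log2 ratio of biopsy over reference across tested probes, without a unit, is plotted for each of the 7 d7 arrays, under 2 background corrections and in the deposited table. The 2 sham arrays of scanner 2 lie at 0.471 and 0.643 after normexp and loess, and near the other arrays in the deposited table.

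No probe was a significantly differentially transcribed gene (SDTG) in the fit over all arrays, which is taken here as an adjusted p under 0.05 with a fold change of at least 2. Counts at the unadjusted p with the same fold are given beside it. In the limma fit over all arrays, 0 of 30282 probes were called higher (0% called) and 0 were called lower, and the lowest adjusted p was 0.114. At an unadjusted p under 0.05, 2939 probes passed, and with a 2-fold change 523 were higher (1.73%) and 59 lower (0.195%). With the 2 scanner 1 sham arrays alone as controls, the SDTG count was 0 in both directions, and 13 probes were higher (0.0429%) and 17 lower (0.0561%) at the unadjusted threshold, out of 440 with an unadjusted p under 0.05. On the deposited values, 1 probe was an SDTG (0.0033%), a higher probe with no gene name, and 63 were higher (0.208%) and 13 lower (0.0429%) at the unadjusted threshold. Deposited values of scanner 1 alone gave 47 higher (0.155%) and 17 lower (0.0561%). Subtracting the local background in place of normexp gave 416 higher (1.37%) and 77 lower (0.254%), and the same on scanner 1 alone gave 8 higher (0.0264%) and 55 lower (0.182%). These counts depended on the scaling. Centring each array on its median in place of loess moved the median over all probes to -0.21 and gave 255 higher and 1578 lower at the unadjusted threshold, with 19 and 1 SDTGs, and array quality weights gave 1284 higher and 363 lower SDTGs. Leaving out sham 3 gave 32 higher and 11 lower SDTGs. Over the 15734 genes with a symbol, each taken by its brightest probe, 55.3% had a positive difference on loess ratios, 60.4% against the scanner 1 sham arrays and 48.4% on deposited values. At an unadjusted p under 0.05, 7.02% of genes were higher and 2.89% lower on loess ratios, and 5.69% higher and 4.68% lower on deposited values. The median difference was 0.03 and -0.01 respectively.

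On deposited values 6 probes had an adjusted p under 0.05, chosen here after their values were seen. The unnamed SDTG had deposited values of 1.88, 1.80, 1.66 and 1.73 on sham 1 to 4 and 3.08, 2.65 and 2.65 on the 3 Gy arrays, a log2 difference of 1.03 (limma adjusted p 0.0404). Slc19a2, a thiamine transporter, had deposited values of -0.89, -0.39, -0.43 and -0.98 on sham 1 to 4 and 0.50, 0.04 and 0.02 on the 3 Gy arrays. The groups did not overlap, and Slc19a2 rose by 0.86 (limma adjusted p 0.0404), with a loess difference of 0.39 (limma adjusted p 0.555) and one of -0.48 under median centring. Dnah5, a dynein heavy chain of cilia, had a deposited difference of -0.59 (limma adjusted p 0.0385), and on loess ratios its sham mean rested on sham 3 at 2.27. Of the other 3 probes, those for Kctd4 and Bbof1 had deposited differences of 0.91 and -0.60 with limma adjusted p 0.0305 each, and one with no gene name had -0.47. A brighter probe of Kctd4 had 0.39, and another of Bbof1 had 0.25.

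Among the genes nearest to a call, several make fatty acids and had higher values after 3 Gy. The 12 genes of lowest unadjusted p with at least a 2-fold difference and no overlap between the 3 Gy and sham arrays included Acly, Fasn, Me1 and Acaca. None passed the test, with adjusted p between 0.346 and 0.491 for the 12. A total of 171 of 15734 genes met the same criteria of size and overlap in the higher direction, and 5.96% of all genes had no overlap in that direction.

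Acly encodes ATP citrate lyase, which supplies acetyl-CoA for lipid synthesis. Its log2 ratio was -0.34 on sham 1, -0.19 on sham 2, 0.79 on sham 3 and 0.53 on sham 4, and 1.36, 1.20 and 1.84 on the 3 Gy arrays. The lowest 3 Gy array stood above the highest sham array, and the scanner 2 sham arrays were the lowest of all. The log2 difference was 1.27 (SE 0.35, limma adjusted p 0.346), and 0.81 against the scanner 1 sham arrays. In the deposited table Acly was 0.69, 0.75, 0.61 and 0.73 on the sham arrays and 1.42, 1.03 and 1.51 on the 3 Gy arrays. The groups did not overlap there either, and the 4 sham arrays lay within 0.15 of each other. The deposited log2 difference was 0.62 with a limma adjusted p of 0.07.

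Fasn encodes fatty acid synthase, which builds palmitate. Its log2 ratio was 0.16, 0.52, 0.82 and 0.69 on sham 1 to 4 and 1.60, 1.42 and 3.39 on the 3 Gy arrays. All 3 Gy arrays were above all sham arrays, with 3 Gy 3 far above the other 2. Fasn had a log2 difference of 1.59 (SE 0.47, limma adjusted p 0.403), 1.38 against the scanner 1 sham arrays and 0.73 on deposited values, where 3 Gy 2 overlapped the sham arrays.

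Me1, malic enzyme, makes the NADPH that fatty acid synthesis consumes. Its log2 ratio was 0.25, 0.87, 1.20 and 0.64 on sham 1 to 4 and 1.50, 1.38 and 2.37 on the 3 Gy arrays. The groups did not overlap, and 3 Gy 3 was again the highest. The log2 difference was 1.01 (SE 0.30, limma adjusted p 0.419) and 0.54 on deposited values, with no overlap there. Acaca, acetyl-CoA carboxylase, had log2 ratios of -0.11, -0.15, 0.42 and 0.08 on sham 1 to 4 and 0.60, 0.44 and 2.17 on the 3 Gy arrays. On 3 Gy 1 and 3 Gy 2 the level was close to that of sham 3, and 3 Gy 3 stood apart. The log2 difference was 1.01 (limma adjusted p 0.484) and 0.38 on deposited values.

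**Figure D2:**
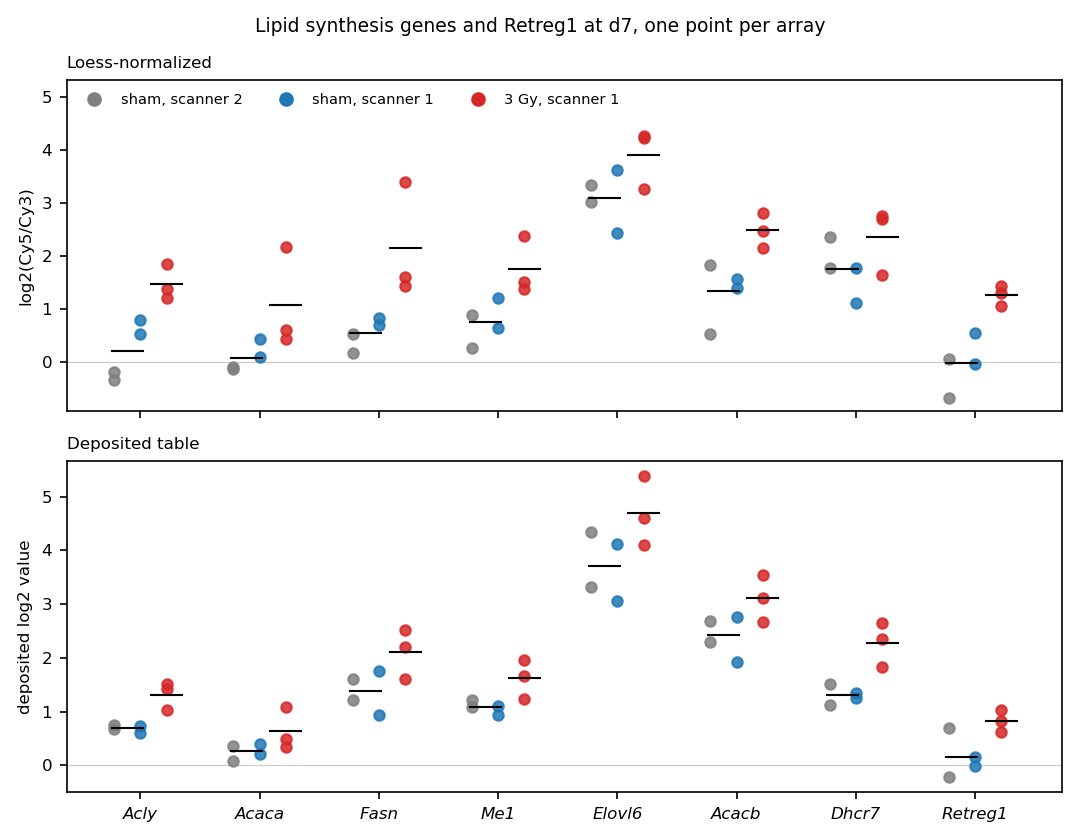
Log2 ratios of lipid genes at d7 are plotted with 1 point per array, loess-normalized above and deposited below, with bars at the group means. Acly of all 3 Gy arrays lies above all sham arrays in both panels.

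After the values of these genes were seen, lists of 18 fatty acid synthesis genes and 19 cholesterol synthesis genes were drawn up. All 18 fatty acid genes were measured. Their median log2 difference was 0.84, against 0.03 over all genes, and it was 0.24 within the shared slide. With all sham arrays 15 of 18 were positive, 7 of them at an unadjusted p under 0.05 (7.02% of all genes). Against the scanner 1 sham arrays the median was 0.65, with 16 of 18 positive and 2 at that p (0.788% of all genes). On deposited values it was 0.38, with 15 of 18 positive and 7 at that p (5.69% of all genes). In the lower direction 1 of 18 passed that p on loess ratios (2.89% of all genes), 0 on scanner 1 alone and 2 on deposited values (4.68%). The list holds Acly, Fasn, Me1 and Acaca, whose values led to it, so its counts partly restate them. Without these 4 genes the median of the other 14 was 0.44 on loess ratios, with 3 higher and 1 lower at an unadjusted p under 0.05. It was 0.51 on scanner 1 alone with 0 in either direction, and 0.25 on deposited values with 3 higher and 2 lower. Adipocyte genes also had higher values, with a median of 1.28 over 11 genes on loess ratios, 11 of 11 positive and 7 higher at that p, and medians of 0.44 on scanner 1 alone and 0.43 on deposited values. Their part in the fatty acid values was not tested. The list was not uniform. Scd2, a desaturase, had a log2 difference of -0.89 (limma unadjusted p 0.00856) and -0.79 on deposited values. For Fads1 every 3 Gy array lay below every sham array on both kinds of value, with differences of -0.66 and -0.34. Thrsp, a regulator of lipid synthesis, had log2 ratios of 0.04, 0.13, 4.66 and 2.08 on sham 1 to 4 and 4.75, 4.23 and 4.61 on the 3 Gy arrays. Sham 3 fell among the 3 Gy arrays, and the Thrsp difference was 2.80 on loess ratios but 0.61 on deposited values.

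Cholesterol synthesis genes differed less. Their median log2 difference was 0.14 with 12 of 19 positive on loess ratios, and 0.17 with 18 of 19 positive on deposited values. Dhcr7, which makes the last step to cholesterol, was the member with the lowest p on deposited values. Its deposited value was 1.12, 1.51, 1.35 and 1.25 on sham 1 to 4 and 2.66, 2.35 and 1.82 on the 3 Gy arrays. The groups did not overlap, and the deposited log2 difference was 0.97 (limma adjusted p 0.0613). On loess ratios the groups overlapped and the difference was 0.61.

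Of 6 sebaceous gland markers 3 were measured, and all 3 were positive on loess and on deposited values. Awat2, which makes wax esters of sebum, had log2 ratios of 0.23, 0.88, 2.26 and 2.57 on sham 1 to 4 and 3.83, 3.58 and 3.76 on the 3 Gy arrays. All 3 Gy arrays were above all sham arrays. Awat2 had a log2 difference of 2.24 (limma unadjusted p 0.0141), 1.31 against the scanner 1 sham arrays and 0.82 on deposited values. Elovl3 and Scd3, which elongate and desaturate sebum lipids, had differences of 1.12 and 0.79.

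Of these 12 genes, the lowest p was that of Retreg1, a receptor for autophagy of the endoplasmic reticulum. Its log2 ratio was 0.04, -0.69, 0.55 and -0.04 on sham 1 to 4 and 1.04, 1.30 and 1.43 on the 3 Gy arrays. On loess ratios no 3 Gy array reached the sham range. Retreg1 differed by 1.29 (SE 0.30, limma adjusted p 0.346), 1.00 against the scanner 1 sham arrays and 0.67 on deposited values, where sham 1 reached 0.69 and overlapped 3 Gy 1 at 0.62. Pon1, a paraoxonase carried by lipoproteins, had the largest difference of the 12, 4.18. Its log2 ratio was 0.25, 0.43, 1.85 and 2.80 on sham 1 to 4 and 3.36, 3.32 and 9.87 on the 3 Gy arrays, so 3 Gy 3 stood apart from the rest. Bscl2 encodes seipin, a protein of lipid droplet assembly, and had a difference of 1.77. Subunits of the proton pump that acidifies lysosomes, Atp6v1c2 and Atp6v1e1, had differences of 2.02 and 1.03. The remaining genes of the 12 were Lrrc28, Ppfia4 and Ecscr. The sign against the scanner 1 sham arrays was fixed by the choice of genes without overlap. On deposited values, where 3.48% of all genes were above without overlap, 5 of 12 (Acly, Me1, Lrrc28, Atp6v1c2 and Atp6v1e1) also had no overlap. The deposited table holds the same arrays on which the 12 were chosen for no overlap. These 5 are therefore no independent support, and their share cannot be read against that of all genes. 3 Gy 3 was the highest of the 3 Gy arrays for 8 of the 12.

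Genes with at least 2-fold lower values and no overlap numbered 10, and all 10 are named here. Over all genes 3.56% lay below without overlap on loess ratios and 3.74% on deposited values. They were Pik3r1, Fos, 2010204K13Rik, S100a6, Marcksl1, 6820431F20Rik, Ska1, Mt1, Ifi44 and Mid1, with adjusted p from 0.444 to 0.68. On deposited values 4 of the 10 (Pik3r1, S100a6, Marcksl1 and 6820431F20Rik) had no overlap. The 10 were chosen for no overlap on the same arrays, so these 4 are no independent support either.

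Marcksl1, an actin-regulating protein, had log2 ratios of -0.18, -0.56, -0.92 and -0.66 on sham 1 to 4 and -1.51, -1.91 and -2.24 on the 3 Gy arrays. The lowest sham array was above the highest 3 Gy array. The log2 difference was -1.31 (SE 0.49, limma adjusted p 0.491), -1.10 against the scanner 1 sham arrays and -0.93 on deposited values. Pik3r1, the regulatory subunit of PI3 kinase, had log2 ratios of -1.32, -1.41, -3.23 and -3.35 on sham 1 to 4 and -3.44, -3.68 and -3.79 on the 3 Gy arrays. The scanner 2 sham arrays lay far above the other 5 arrays. The difference was -1.31 with all 4 sham arrays and -0.34 with scanner 1 alone. The deposited difference was -0.56.

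Fos, an immediate early transcription factor, had log2 ratios of 2.03, 1.20, 0.75 and -1.50 on sham 1 to 4 and -1.75, -2.27 and -1.71 on the 3 Gy arrays. The sham arrays spread over more than 3 log2 units, and sham 4 was close to the 3 Gy arrays. For Fos the log2 difference was -2.53 (SE 0.81, limma adjusted p 0.491), -1.54 against the scanner 1 sham arrays and -0.84 on deposited values, where the groups overlapped. Of the 13 immediate early genes, 11 were negative on loess ratios with a median of -0.78. On scanner 1 alone 7 were negative with a median of -0.015, and on deposited values 9 with a median of -0.03.

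**Figure D3:**
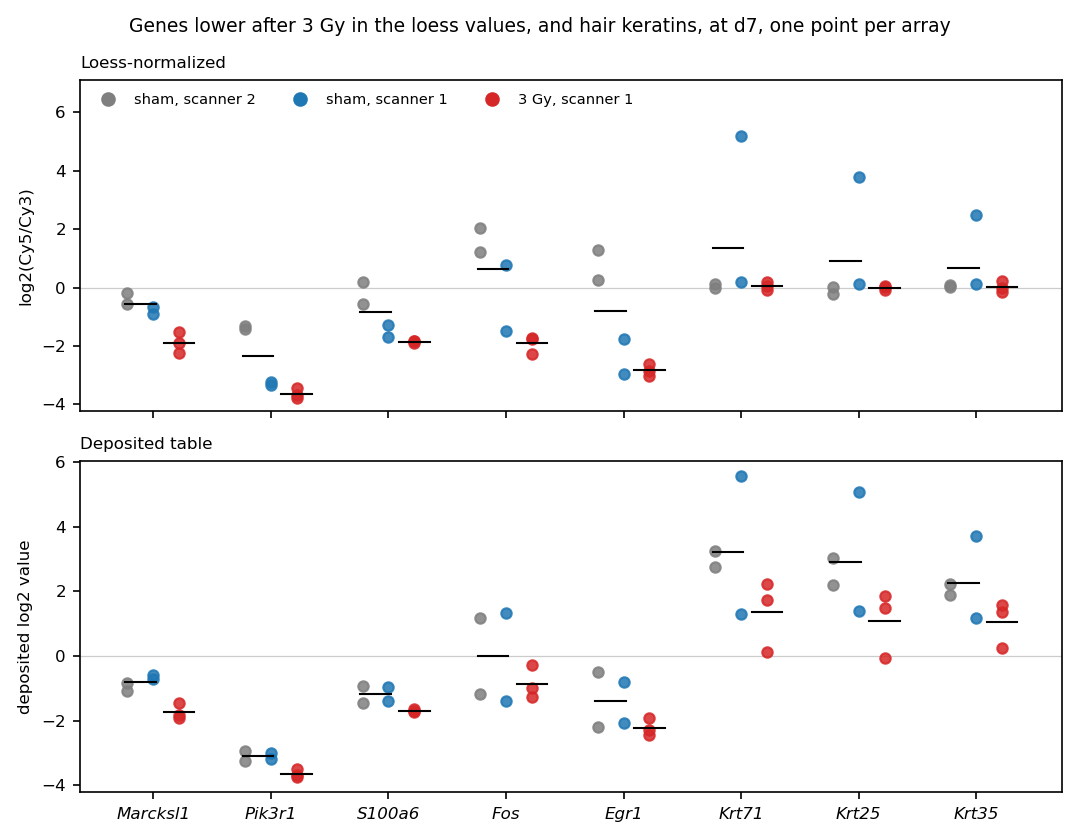
Log2 ratios of genes with lower values after 3 Gy are plotted with 1 point per array, loess-normalized above and deposited below, with bars at the group means. Marcksl1 of all 3 Gy arrays lies below all sham arrays in both panels, while Fos of sham 4 lies beside the 3 Gy arrays.

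Krt71, Krt25, Krt27, Krt33a and Krt35 of the hair follicle had 1 high sham array on loess ratios, sham 4. Krt71, an inner root sheath keratin, had log2 ratios of -0.01, 0.13, 0.19 and 5.17 on sham 1 to 4 and 0.07, -0.07 and 0.20 on the 3 Gy arrays. Sham 4 stood alone, and the other 6 arrays lay near 0. Deposited values were 2.77, 3.26, 1.30 and 5.57 on sham 1 to 4 and 2.23, 1.75 and 0.13 on the 3 Gy arrays, so the groups overlapped. Of 15 measured growing hair follicle genes, 0 were positive on deposited values with a median of -1.02, and 6 were positive on loess ratios with a median of -0.15. Only 2 of these 15 were above background on all 7 arrays, so both medians rest mostly on dim probes. Of 12 measured keratin-associated protein genes 0 were positive on deposited values, with a median of -0.71, 2 of 12 lower at an unadjusted p under 0.05 (4.68% of all genes) and 4 of 12 below without overlap (3.74% of all genes). On loess ratios 4 of the 12 were positive, with a median of -0.077. Only 4 of these 12 were above background on all 7 arrays, so the medians and the overlap count rest mostly on dim probes. On deposited values, 1 of the 15 hair follicle genes had an unadjusted p under 0.05 in the lower direction.

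Epidermal genes had mostly positive differences with all sham arrays in both sets of values, and none of them passed the test. The medians of the suprabasal and cornified lists were smaller within the shared slide, and near 0 with local background subtracted on scanner 1 alone. The 7 measured suprabasal keratinocyte genes had a median log2 difference of 1.35 on loess ratios and 0.69 on deposited values, and the 12 measured cornified envelope genes 1.08 and 0.63. Against the scanner 1 sham arrays the medians were 0.83 and 0.57, and within the shared slide 0.19 and 0.12. With local background subtracted on scanner 1 alone they were 0.05, with 4 of 7 positive, and 0.03, with 7 of 12 positive. On deposited values 4 of the 12 cornified envelope genes had an unadjusted p under 0.05 in the higher direction, against 5.69% of all genes. Hrnr, hornerin of the cornified envelope, had deposited values of 5.05, 5.80, 5.43 and 5.90 on sham 1 to 4 and 8.49, 8.04 and 6.56 on the 3 Gy arrays. All 3 Gy arrays were above all sham arrays. The deposited log2 difference was 2.15 (limma adjusted p 0.0776), and the loess difference was 3.57 (SE 1.31, limma adjusted p 0.491).

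Basal keratinocytes were represented by 8 genes, of which 5 were positive on loess ratios with a median of 0.26, 7 on scanner 1 alone with a median of 0.23, and 7 on deposited values with a median of 0.34. Krt5 and Krt15, keratins of the basal layer, had loess differences of -0.32 and -0.12 and deposited differences of 0.36 each. Col17a1, a collagen of the hemidesmosome, had deposited values of 2.48, 2.08, 2.25 and 2.46 on sham 1 to 4 and 3.61, 3.22 and 2.77 on the 3 Gy arrays. Every 3 Gy array was above every sham array. The deposited log2 difference was 0.89 (limma adjusted p 0.07) and the loess difference was 1.93. Trp63, the transcription factor that maintains the epidermis, had deposited values of 4.13, 4.24, 3.84 and 4.46 on sham 1 to 4 and 5.46, 5.42 and 4.87 on the 3 Gy arrays, again with no overlap and with a difference of 1.08.

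Kallikreins are proteases that shed the outermost skin cells. Of the 8 listed, 6 were measured and 6 of 6 were positive in each of the 3 comparisons (5 of 6, with a median of 0.24, with local background subtracted on scanner 1 alone), with medians of 1.79 on all sham arrays, 1.01 on scanner 1 alone and 0.99 on deposited values. Klk8 had log2 ratios of 0.42, 1.51, 5.08 and 3.26 on sham 1 to 4 and 5.37, 5.27 and 4.54 on the 3 Gy arrays. Sham 3 lay among the 3 Gy arrays. The difference was 2.49 (SE 0.91, limma adjusted p 0.491) with all sham arrays, 0.89 with scanner 1 alone and 1.02 on deposited values. Klk7 had log2 ratios of 4.39, 5.42, 7.58 and 5.92 on sham 1 to 4 and 7.84, 8.17 and 7.64 on the 3 Gy arrays. The lowest 3 Gy array was just above sham 3, and the difference was 2.06 (SE 0.97, limma adjusted p 0.507). Within the slide that held sham 3 with 3 Gy 1 and 3 Gy 2, the kallikrein median was 0.36 on loess ratios and 0.44 on deposited values.

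S100a9, a calcium-binding protein of neutrophils and stressed keratinocytes, had deposited values of 4.45, 3.54, 2.83 and 4.47 on sham 1 to 4 and 6.89, 5.94 and 6.30 on the 3 Gy arrays. The groups were apart by more than 1 log2 unit. The deposited log2 difference was 2.55 (limma adjusted p 0.153) and the loess difference 3.12 (SE 1.19). S100a8, its partner protein, overlapped between the groups on both kinds of value. Its loess difference was 1.48, with 3 Gy 2 at 6.43 far above the other 3 Gy arrays, against -0.06 on scanner 1 alone and 0.25 on deposited values. The 13 measured keratinocyte stress genes, which include both, had medians of 0.37 on loess ratios, -0.02 on scanner 1 alone with 6 of 13 positive, and 0.32 on deposited values. The 6 measured neutrophil markers had a median of 0.11 on loess ratios and 0.05 on deposited values. However, 0 of the 6 were above background on all 7 arrays, so these medians cannot show whether neutrophils differed.

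**Figure D4:**
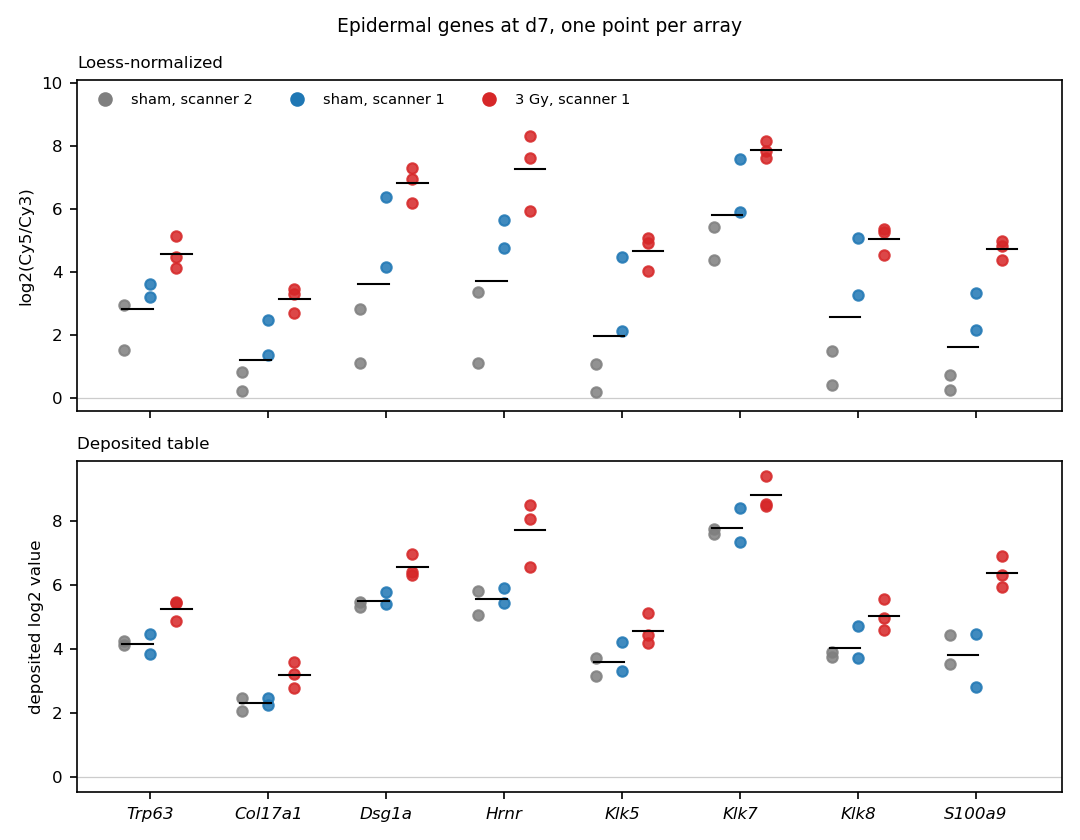
Log2 ratios of 8 epidermal genes at d7 are plotted with 1 point per array, loess-normalized above and deposited below, with bars at the group means. Hrnr and S100a9 of the 3 Gy arrays lie above all sham arrays in both panels, and Klk8 of sham 3 lies among the 3 Gy arrays.

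For p53 targets, cell cycle genes and DNA repair genes, the list medians moved with the sham arrays used. The 28 p53 targets had medians of 0.13 on loess ratios, 0.22 on scanner 1 alone and 0.06 on deposited values. At an unadjusted p under 0.05, 1 of 28 was higher on loess ratios (7.02% of all genes), 0 on scanner 1 alone (0.788%) and 6 on deposited values (5.69%). In the lower direction 1 of 28 passed that p on loess ratios (2.89% of all genes), 0 on scanner 1 alone (0.407%) and 1 on deposited values (4.68%). Zmat3, an RNA-binding p53 target, had deposited values of -0.43, -0.35, -0.58 and -0.59 on sham 1 to 4 and 0.18, 0.19 and -0.28 on the 3 Gy arrays, without overlap and with a difference of 0.52. Trp53inp1 and Perp, which promote cell death, had deposited differences of 0.50 and 0.82. Cdkn1a, the p53 target that stops the cell cycle, had differences of -0.20 on loess ratios and 0.04 on deposited values. Mdm2, another p53 target, also had a negative loess difference. All 22 mitosis genes were negative on loess ratios with a median of -0.71. The median was -0.16 on scanner 1 alone with 17 of 22 negative, and -0.11 on deposited values with 19 of 22 negative. All 18 replication genes were negative on loess ratios with a median of -0.36, and the median was 0.06 on scanner 1 alone and 0.10 on deposited values. DNA repair genes had medians of -0.34, -0.07 and -0.01.

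**Figure D5:**
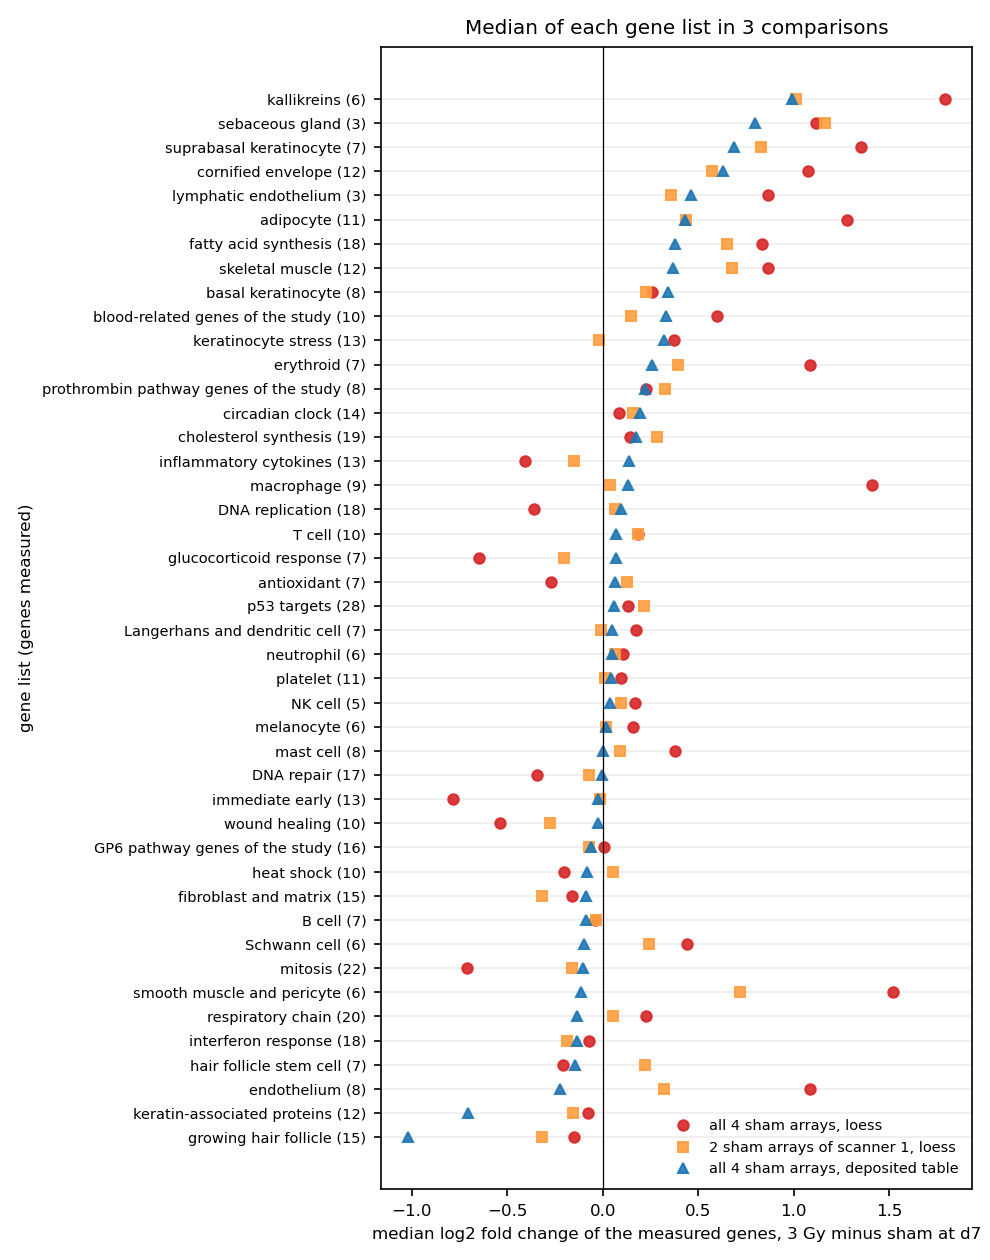
The median log2 difference of 3 Gy minus sham is plotted for each gene list with all sham arrays, with scanner 1 arrays alone and on deposited values. The kallikrein and sebaceous gland lists are positive in all 3, while the mitosis list goes from -0.71 with all sham arrays to -0.16 with scanner 1 alone.

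Differences of red blood cell genes varied with the sham arrays and values used. Hbb-bt, a beta globin, had log2 ratios of 3.01, 3.72, 7.10 and 7.47 on sham 1 to 4 and 7.36, 7.95 and 7.76 on the 3 Gy arrays. Sham 3 and sham 4 stood beside the 3 Gy arrays. The difference was 2.37 with all sham arrays and 0.41 on scanner 1 alone. On deposited values it was 1.23 (limma unadjusted p 0.0251, adjusted p 0.428) with no overlap between the groups, and 1.17 on scanner 1 alone. The 7 measured erythroid genes had medians of 1.09, 0.39 and 0.26 in the 3 comparisons. In whole biopsies fewer cells of a type and less RNA per cell cannot be told apart. Cd3d, a T cell receptor chain, had deposited values of 2.13, 1.41, 1.66 and 2.10 on sham 1 to 4 and 2.96, 2.72 and 2.45 on the 3 Gy arrays. No array of either group reached the other, and the deposited difference was 0.88 (limma adjusted p 0.07), while the 10 T cell genes had a median of 0.07 on deposited values. The 7 measured B cell genes had a median of -0.04 on loess ratios and -0.09 on deposited values, but only 2 of the 7 were above background on all 7 arrays.

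The study named pathways of platelet activation and coagulation on these same samples, so their genes are no independent evidence of direction. The 16 measured genes of its GP6 signaling list had a median of 0.01 on loess ratios and -0.06 on deposited values, with 8 of 16 positive on loess ratios. The 8 prothrombin genes had medians of 0.23 and 0.22, with 5 of 8 positive in each. Col1a1, the main collagen of dermis, had a difference of -0.56 on loess ratios and 0.33 on deposited values, and Col3a1 had -0.09 and -0.04. Calm4, a calmodulin of differentiating keratinocytes, had 1.20 and 0.69.

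Of 14 measured circadian clock genes, 8 were positive on loess ratios with a median of 0.09, and 11 on scanner 1 alone with a median of 0.16. On deposited values 13 were positive with a median of 0.20, and 4 were higher at an unadjusted p under 0.05, against 48.4% of all genes positive and 5.69% higher at that p. Nr1d2, a repressor of the clock, had log2 ratios of 0.12, 0.21, 0.18 and 0.54 on sham 1 to 4 and 1.04, 0.82 and 1.05 on the 3 Gy arrays. Both groups were apart, and the difference was 0.71 on loess ratios and 0.72 on deposited values. The hour of each biopsy was not used here, so its part in these values was not tested.

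Other doses at d7 were compared with the same sham arrays, so their differences share those controls and are only set side by side. The difference for 1, 3, 6 and 20 Gy was 0.09, 1.27, 0.69 and -0.90 for Acly, -1.65, 2.49, 1.03 and -2.13 for Klk8, and -1.23, 3.12, 2.50 and 3.43 for S100a9, all on loess ratios. The loess SD of the 1 Gy arrays was 0.451 and 0.439, below that of every other d7 array, against 1.05 and 1.09 in the deposited table. On deposited values the differences for 1, 3, 6 and 20 Gy were 0.54, 0.62, 0.59 and -1.04 for Acly, 0.78, 1.02, 1.11 and -1.58 for Klk8, and 1.15, 2.55, 2.91 and 3.68 for S100a9. For all 3 genes the 1 Gy values stood nearer to those of 3 Gy there. In the direct contrast of 3 with 1 Gy, 1 probe was an SDTG (0.0033%), of an olfactory receptor, Olfr740, and in that with 6 Gy 0 were. On deposited values the 1 Gy contrast had 12 lower probes (0.0396%) and the 6 Gy contrast had 3 (0.00989%). In the contrast of 3 with 20 Gy, 1287 probes were higher (4.25%) and 827 lower (2.73%) after 3 Gy, and on deposited values 1061 (3.5%) and 378 (1.25%). All 20 Gy arrays came from scanner 2. With scanner as a block in the fit, estimated from groups that span both scanners, 775 were higher (2.56%) and 706 lower (2.33%). Acly was higher after 3 Gy than after 20 Gy by 2.18 (limma adjusted p 2.21e-05) and Pik3r1 lower by a log2 difference of -2.35 (limma adjusted p 3.84e-05). With scanner as a block these differences were 2.07 and -1.87, and on deposited values 1.67 and -1.02.

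At day 4 (d4) the same dose gave log2 differences against sham of -0.45 for Acly, -1.63 for Fasn, -1.51 for Klk8 and -4.69 for Hbb-bt on loess ratios. On deposited values they were 0.39, -0.16, 1.23 and -0.92, so Acly and Klk8 had the opposite sign there, and on scanner 1 alone -0.15, -2.06, -0.76 and -5.33. The d7 difference minus the d4 difference passed both thresholds for 1049 probes in the higher direction (3.46%) and 679 in the lower (2.24%). The count depended on the fit. It was 1728 in both directions together, 2190 with scanner as a block, 2775 with mouse as a random block and 2414 under median centring. On deposited values 0 probes passed in either direction, and on scanner 1 alone, where 1 sham array remained at d4 and was assumed to vary like the other groups, 0 were higher and 2 lower (0.00663%). The same mice were biopsied at both time points for 3 mice of each group, and the differences within those mice gave 0 in either direction (lowest limma adjusted p 0.17). For Hbb-bt the d7 minus d4 value was 7.05 on loess ratios, 5.74 on scanner 1 alone and 2.15 on deposited values, and for Klk8 it was 4.00, 1.66 and -0.21.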

How the data were processed

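Per the labels, RNA of mouse skin biopsies was hybridised to 2-colour Agilent 4x44K arrays against a universal reference, with no dye swap. Deposited scanner files hold spot intensity for both channels and the scanner's log10 ratio of Cy5 over Cy3, which carry Agilent Feature Extraction's own processing, by version 10.10.1.1 on 57 arrays and 11.0.1.1 on 25. The series table holds log2 values that the authors normalized by steps not given in the sources used here. Its d7 column medians were between -0.008 and 0.014, so it is centred near 0, and its direction matched the loess ratios on every d7 array. Of 45018 spots, 1639 control spots were left out, and 0.704% of values flagged as outliers were dropped. Median spot signals were corrected with normexp (offset 50), loess-normalized within arrays and averaged by probe. Of 41174 probes, 30323 were tested. limma 3.58.1 (R 4.3.3) fitted all 82 arrays with 23 group means (59 residual degrees of freedom) and Benjamini-Hochberg adjustment over all tested probes. Symbols were updated through the RefSeq table, giving 15734 genes, each by its probe of highest mean intensity. The array number limits precision. The fit was tested on simulated data drawn without differences between scanners, slides, mice or array spreads. That test therefore cannot show how such differences affect the counts. Named genes were those past both thresholds or, since there were fewer than 10, up to 12 in each direction of lowest unadjusted p among genes with a 2-fold change and no overlap, plus list members past p 0.05 or of highest intensity and genes the study lists. Members and lists were chosen with earlier results of these data known. Mice are separate animals. The alternatives tried are in the closing section.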

Additional observations from a re-analysis of the deposited data

Results flagged for a closer look

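Among the 4 sham arrays, 1 array stood far from the other 3 for 5 of 60 genes named with a difference (8.33%), against 7.06% of all genes with a symbol and 30 of 461 list members (6.51%). Sham 4 had log2 ratios of -1.07 for Dbp, 5.17 for Krt71, 3.77 for Krt25 and 2.48 for Krt35, and sham 3 had 2.27 for Dnah5. Chance alone sets about 1 in 20 such groups apart, and the cause was not tested.

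The effect of 3 Gy differed between d7 and d4 by an interaction contrast of the limma fit (adjusted p under 0.05 and at least a 2-fold difference), with the d7 effect higher for 1049 probes and lower for 679. On the log2 scale the d7 effect minus the d4 effect was 1.66 for Retreg1, 5.57 for Pon1, 1.72 for Acly, 3.22 for Fasn, 1.86 for Me1, 1.75 for Lrrc28, 1.31 for Acaca, 2.84 for Bscl2, 2.86 for Ppfia4, 1.96 for Ecscr and 4.28 for Atp6v1c2. It was 4.00 for Klk8, 4.75 for Klk5, 4.67 for Trp63, 3.76 for Col17a1, 5.53 for Dsg1a and 4.38 for Thrsp. It was 7.05 for Hbb-bt, 4.74 for Hba-a1, 2.27 for Nr1d1 and 2.33 for Cd3d, and negative for 2010204K13Rik at -1.85 and Ska1 at -2.72. With scanner as a block 2190 probes passed in all, on deposited values 0 did, on scanner 1 alone 0 were higher and 2 lower, and within the mice biopsied at both time points 0 passed. For these 23 genes the deposited values ran from -0.68 for 2010204K13Rik to 2.15 for Hbb-bt, and the scanner 1 values from -1.80 for Ska1 to 5.74 for Hbb-bt, with none for Hba-a1.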

How the results depend on the processing

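Depth is not defined for arrays, and dim probes limit the precision. No paired analysis was possible because the doses were given to different mice, so 3 Gy and sham at d7 share no animal, and the replicate numbers only name arrays. The d7 minus d4 contrast could be paired by mouse. In probes higher and lower at the unadjusted threshold (523 and 59), counts were 13 and 17 on scanner 1 alone, 322 higher with scanner as a block, 107 and 12 with slide as a block, 63 and 13 on deposited values, 255 and 1578 under median centring, 272 and 105 without background correction, 1539 and 392 with array weights, 1715 lower from the scanner's log ratio, 403 lower from Cy5 alone and 37 lower among probes above background on all 7 arrays. SDTGs higher and lower (0 and 0) were 1 higher on deposited values, 19 and 1 under median centring, 2 and 9 from the scanner's log ratio, 249 and 323 from Cy5 alone, and 1284 and 363 with array weights. Alternatives chosen after seeing the data gave 277 lower and 1 SDTG lower (normexp offset 1), 8 higher (background subtracted, scanner 1) and 47 and 17 (deposited, scanner 1). Leaving out 1 array gave 90 to 1161 higher, 16 to 216 lower, and 0 to 32 and 0 to 11 SDTGs, the highest of each without sham 3 and 90 without sham 1. Against 1 Gy (1 SDTG), counts were 0 on scanner 1, 5 with the scanner block, 12 on deposited values, 3842 under median centring, 3 from the scanner's ratio, and 4 both without background correction and with it subtracted. Against 6 Gy (0), they were 3 on deposited values and 1 under median centring, scanner ratio and no background correction. Against 20 Gy (2114), they were 1481 with the scanner block, 3214 under median centring and 7790 from the scanner's ratio. The d7 minus d4 count (1728) was 2775 with mouse as a block, 1 from the scanner's ratio, and, in fits chosen after seeing the data, 2 on scanner 1 alone and 0 within the mice that have both time points, and 0 on deposited values, without background correction and with it subtracted, and 0 to 3092 leaving out 1 array, with 1 or 0 when 3 Gy 2, 3 Gy 3, sham 1 or sham 2 was left out. Signs turned under median centring for Me1 (-0.073), Hba-a1 (-0.12), Hbb-y (-0.27), Zmat3 (-0.51), Trp53inp1 (-0.52), Nr1d2 (-0.031), Slc19a2 (-0.48) and Dnah5 (0.45). They turned with background subtracted on scanner 1 for Klk7 (-0.12), Calm4 (-0.15), Col1a1 (0.19), Hba-a1 (-0.59), Scd3 (-0.092) and Cd3d (-0.14), and within the shared slide for Calm4 (-0.17), Col1a1 (0.41), Thrsp (-0.17) and Mdm2 (0.13). On scanner 1 alone they turned for Col1a1 (0.21), Hba-a1 (-0.44), Krt5 (0.22), Krt15 (0.23) and S100a8. With the scanner block they turned for Col1a1 (0.087) and Col3a1 (0.56). On deposited values they turned for Col1a1 (0.33, and 0.27 on scanner 1), Krt5 (0.36), Krt15 (0.36) and Cdkn1a. The sign turns given here are not a complete list. Col3a1 was 0.008 with the mouse block, 0.076 from Cy5 and 0.041 with array weights, and Mdm2 was 0.13 from Cy5. The scanner's ratio turned Hbb-y (-0.17), Acacb (-0.043), Scd3 (-0.25), Trp53inp1 (-0.36) and Perp (-0.10), and no background correction turned Trp53inp1 (-0.079). Leaving out 1 array gave -0.93 to 0.002 for Col1a1, -0.43 to 0.10 for Col3a1, -1.32 to 0.018 for Krt25 and -0.73 to 0.07 for Dnah5. The causes were not tested.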

Other observations

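Other tissues of the biopsy moved with the choice of values. All 11 adipocyte genes were positive on loess ratios with a median log2 difference of 1.28, and 7 were higher at an unadjusted p under 0.05, against 7.02% of all genes. The median was 0.44 on scanner 1 alone with 0 of 11 at that p, and 0.43 on deposited values with 1 higher and 1 lower. Adipoq, the fat cell hormone adiponectin, had log2 ratios of 1.47, 2.67, 7.35 and 5.59 on sham 1 to 4 and 7.57, 6.29 and 6.81 on the 3 Gy arrays, so sham 3 lay among the 3 Gy arrays. The 8 endothelial genes were all positive on loess ratios with a median of 1.09 and all negative on deposited values with a median of -0.23. The 12 skeletal muscle genes had medians of 0.87 and 0.37, and the 18 measured interferon response genes had medians of -0.07 and -0.14. Of these 18, 4 were positive on loess ratios (55.3% of all genes), 3 on scanner 1 alone (60.4%) and 4 on deposited values (48.4%). On loess ratios 5 of the 18 lay below all sham arrays (3.56% of all genes), and on deposited values 0 did.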
